A study of Mus musculus with 2 samples.

Results

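C-type lectin receptors were examined as 10 named mouse genes: Clec7a, Clec4n, Clec4d, Clec4e, Clec4a2, Clec12a, Clec10a, Clec2d, Mrc1 and Cd209a. Their members on the array were all probe sets whose only gene in the platform annotation is one of these, and the rule used no signal. It found 12 probe sets of 9 genes among 22690 probe sets, and none carried the name of Clec12a, which was not analysed here. A gene was called measured when its probe set lay above a floor of 134.7 signal units, set at the median over both arrays together, on at least 1 array. Of the 9 genes, 6 were measured.

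The samples were unstimulated cells sorted from the lamina propria of the small intestine of C57BL/6 mice aged 8 weeks, with no other genotype or treatment in the labels. There was 1 array of dendritic cells, gated as CD11c+MHCII+, and 1 array of eosinophils, gated as CD11b+CD11c(int)MHCII-SiglecF+. The sources used here do not give how many animals were sorted. Signals are MAS5 values, in which the Affymetrix algorithm of that name condenses the probes of a probe set into a single linear value. Of all probe sets, 47.2% in dendritic cells and 52.8% in eosinophils lay over the floor. With 1 array per population there was no replicate error, no test was made, and each difference describes these 2 arrays only.

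C-type lectin receptors are surface proteins of myeloid cells that bind carbohydrates, glycolipids or other ligands through a conserved lectin fold. Activating members either carry their own short tyrosine motif (Clec7a, also called Dectin-1, a receptor for fungal beta-glucan) or borrow the tyrosine motifs of the adaptor Fcer1g (Clec4n, also called Dectin-2, and Clec4e, also called Mincle), and both routes recruit the kinase Syk and the CARD9 complex. Inhibitory members such as Clec4a2 carry a motif that recruits the phosphatases Ptpn6 and Ptpn11. In the intestine these receptors are known for sensing commensal fungi and bacteria.

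To show the sequence next to the start sites of the members that were furthest apart, the 250 bases before the start site of Clec7a and Clec4d are printed, with Clec4e beside Clec4d because it is the next protein-coding gene on the chromosome. The sequences are from RefSeq, build GRCm38.p6, written in the direction of the gene. They lie at chr6:129472780-129473029 (minus strand), chr6:123261857-123262106 (plus strand) and chr6:123289872-123290121 (minus strand). Capitals mark matches on either strand to GAGGAA, the core bound by the myeloid factor PU.1, or to TTGCNNAA, a C/EBP motif.
Clec7a: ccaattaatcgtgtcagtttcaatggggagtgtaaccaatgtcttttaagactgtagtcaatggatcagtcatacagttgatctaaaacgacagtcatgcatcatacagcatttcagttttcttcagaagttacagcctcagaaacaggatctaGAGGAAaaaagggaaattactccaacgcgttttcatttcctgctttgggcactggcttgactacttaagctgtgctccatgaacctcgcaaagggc
Clec4d: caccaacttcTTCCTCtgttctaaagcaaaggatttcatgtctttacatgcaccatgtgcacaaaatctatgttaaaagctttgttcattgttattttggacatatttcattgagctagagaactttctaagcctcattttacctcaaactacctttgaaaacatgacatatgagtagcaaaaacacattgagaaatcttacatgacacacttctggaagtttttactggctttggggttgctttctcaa
Clec4e: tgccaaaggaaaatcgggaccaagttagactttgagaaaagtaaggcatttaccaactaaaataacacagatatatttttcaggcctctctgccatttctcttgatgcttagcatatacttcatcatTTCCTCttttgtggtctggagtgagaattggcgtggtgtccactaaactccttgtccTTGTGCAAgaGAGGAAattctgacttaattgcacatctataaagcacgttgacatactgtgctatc
The Clec7a stretch held 1 match to the PU.1 core, with its first base at position -96 from the start site. The Clec4d stretch held 1 at position -240, and the Clec4e stretch held 2 together with 1 C/EBP match, without overlap between them. RefSeq start sites were matched for 8 of the 10 genes (all but Clec4n and Clec10a). For Clec7a, the first of its listed windows was used. The PU.1 core was found for 5 of the 8 genes and in 23.3% of 32851 windows of that length. The C/EBP motif was found for 2 of the 8 genes, against 9.56% of all windows, and AGATAA, the core bound by factors of the GATA family, for none of the 8, against 9.99%. These matches describe letters only, and no binding was measured.

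Among the 6 measured receptors, Clec7a was far brighter in dendritic cells, Clec4d and to a lesser degree Clec2d were brighter in eosinophils, and Clec4n, Clec4e and Clec4a2 gave low signals whose folds, or minimum folds where 1 side was under the floor, were below 2. A signal under the floor was raised to it, so wherever that happened the fold is a minimum, written "at least". At 4-fold or more, 1 receptor was brighter in dendritic cells and 1 in eosinophils. Over all 7994 measured genes, eosinophils were ahead by that margin for 5.35% and dendritic cells for 5.35%, and 1 gene of 6 in each direction is too few to set apart from that background. At 2-fold or more the receptors numbered 2 toward eosinophils (19% of all measured genes) and 1 toward dendritic cells (15.5%). The median log2 difference of the 6 receptors, eosinophils minus dendritic cells, was 0.25, against 0.16 for all measured genes. It falls between Clec4e and Clec4a2, both minimum values, so it depends on where the floor lies. With the floor at the 25th percentile of all signals, where 9 receptors were measured, it was 0.63. The pooled SD between probe sets of the same gene, which measures disagreement between probe sets and not between animals, was 0.73 on the log2 scale.

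**Figure D1:**
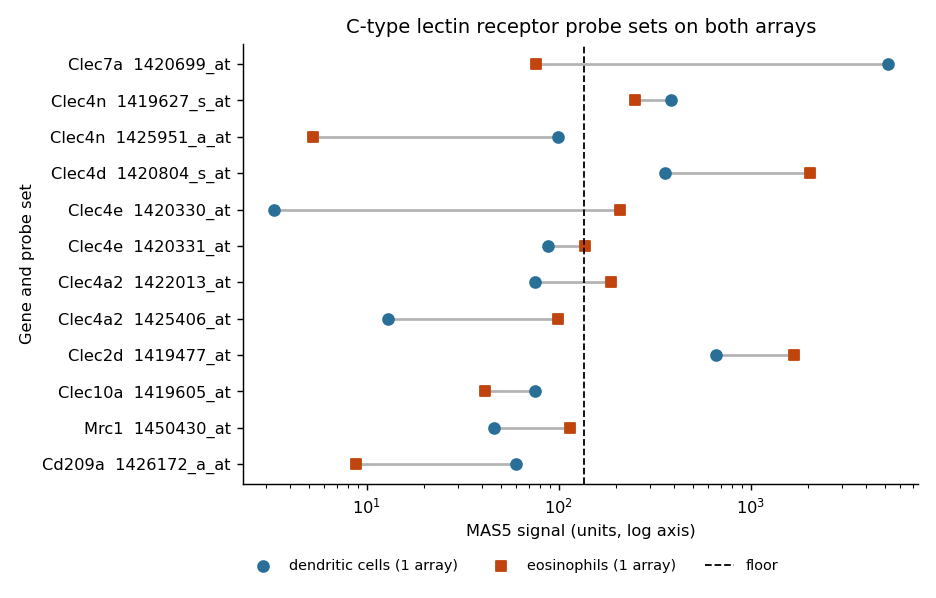
MAS5 signal in units (log axis) of the 12 probe sets of the C-type lectin receptors, with a circle for the dendritic cell array, a square for the eosinophil array and a dashed line at the floor of 134.7 units. Clec7a spans 5176 to 76.0 units toward dendritic cells, Clec4d spans 358 to 2035 units toward eosinophils, and Clec10a, Mrc1 and Cd209a lie left of the floor on both arrays.

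Clec7a, which binds beta-glucan in fungal cell walls, gave 5176 units in dendritic cells and 76.0 in eosinophils. The eosinophil signal lay under the floor, and the dendritic cell signal was at least 38.4-fold higher. In sorted bulk RNA, fewer cells that express a gene and less of its RNA per cell cannot be told apart. The bound rests on 1 probe set, 1420699_at, so no second probe set of the gene bears on it. With the floor moved to the 95th percentile of a list of germ cell, lens, hair and other genes not expected in these cells (196.8 units), the log2 difference was -4.72. With the floor at the 25th percentile of all signals it was -6.09. It was the sole member at least 4-fold brighter in dendritic cells in each of the 10 alternative settings of scale, floor and probe set. It was also the sole one at a threshold of 2-fold or 10-fold.

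Clec4n, which binds fungal mannans, gave 385 units in dendritic cells and 250 in eosinophils with probe set 1419627_s_at. Both signals were above the floor, and dendritic cells were 1.54-fold brighter, a log2 difference of -0.62 that is smaller than the SD between probe sets. Its second probe set, 1425951_a_at, gave 99.2 units in dendritic cells and 5.27 in eosinophils, under the floor on both arrays. Both arrays gave a signal over the floor for 5389 genes, and 25.2% of these were further toward dendritic cells than Clec4n. When the arrays were centred on their spike-in control RNAs, whose median signal ratio was 2.06 toward eosinophils over 18 probe sets, the Clec4n difference was -1.66.

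Clec4d, also called MCL, pairs with Clec4e and binds mycobacterial glycolipid. It gave 358 units in dendritic cells and 2035 in eosinophils, above the floor on both arrays. Eosinophils were 5.68-fold brighter, a log2 difference of 2.51, and 145 of those 5389 genes were further toward eosinophils. Centring on the spike controls brought it to 1.47, under the 4-fold mark. Its only probe set, 1420804_s_at, carries the suffix that marks probes able to match several transcripts, so a share from a related gene cannot be told apart. The 1419627_s_at set of Clec4n carries the same suffix.

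Clec4e, which senses mycobacterial and fungal glycolipids and dying cells, had 2 probe sets. Probe set 1420330_at gave 3.29 units in dendritic cells and 208 in eosinophils, at least 1.54-fold apart. Probe set 1420331_at, which stood for the gene because its mean log2 signal was higher, gave 88.3 and 137 units, at least 1.01-fold apart. Both sets passed the floor in eosinophils alone, and the second only just. Both are minimum folds at low brightness, so they do not show that Clec4e was alike on the 2 arrays. The size of any difference below the floor is unknown.

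Clec4a2, also called DCIR, is an inhibitory receptor first described on dendritic cells. Probe set 1422013_at gave 75.0 units in dendritic cells and 187 in eosinophils, at least 1.39-fold brighter in eosinophils and below the 95th percentile of the background list. With the floor at the 25th percentile of all signals its log2 difference was 1.32. Probe set 1425406_at gave 12.8 and 99.6 units, under the floor on both arrays. A further probe set, 1425407_s_at, is annotated to both Clec4b1 and Clec4a2 and so falls outside the rule. It gave 203 units in dendritic cells and 1598 in eosinophils, 7.88-fold brighter in eosinophils. The probe set of Clec4b1 alone gave 114 and 485 units, at least 3.60-fold brighter in eosinophils, so the share of each gene in the common signal cannot be told apart.

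Clec2d is a lectin-like protein that serves as the ligand of an inhibitory receptor on natural killer cells. It gave 659 units in dendritic cells and 1672 in eosinophils, 2.54-fold brighter in eosinophils, a log2 difference of 1.34. Both signals were well above the floor. Of the same 5389 genes, 13.1% were further toward eosinophils. Centring on the spike controls brought the difference to 0.30.

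Receptors used as marks of macrophages and of some dendritic cells gave little signal. Clec10a, a receptor for galactose-type sugars, gave 75.6 units in dendritic cells and 41.4 in eosinophils. Mrc1, the mannose receptor CD206, gave 45.9 units in dendritic cells and 114 in eosinophils. Cd209a, a mouse relative of human DC-SIGN, gave 60.1 units in dendritic cells and 8.82 in eosinophils. Each had 1 probe set and lay under the floor on both arrays, so no fold was formed, and these signals do not show that the genes are silent.

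**Figure D2:**
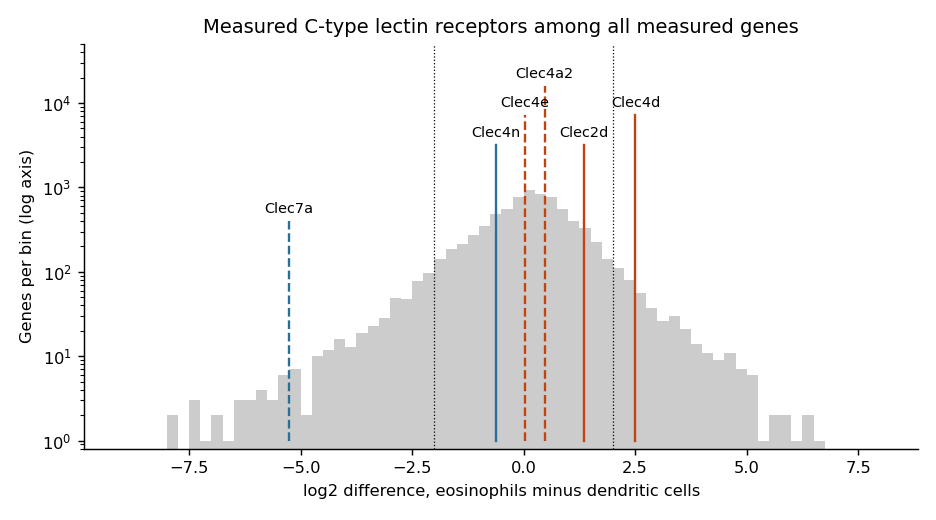
Histogram of the log2 difference (eosinophils minus dendritic cells) of the 7994 measured genes in bins on a log count axis, with the 6 measured receptors as vertical lines, solid where both arrays were above the floor and dashed where the value is a bound. Dotted lines stand at 4-fold. Clec7a at -5.26 lies in the thin left tail, Clec4d at 2.51 lies beyond the right dotted line, and the other 4 lie between the dotted lines.

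Of the 10 genes, 7 lie in 2 groups of lectin genes on chromosome 6 in the RefSeq gene table. In the stretch of 9 protein-coding genes from Clec4a1 to Clec4e, 5 had a probe set of their own. Clec4d was 5.68-fold brighter in eosinophils, Clec4b1 at least 3.60-fold, Clec4a2 at least 1.39-fold and Clec4e at least 1.01-fold. Clec4n lay the other way by 1.54-fold. In the stretch of 9 genes from Clec2d to Clec7a, 4 had a probe set. Its ends pointed in opposite directions, with Clec2d 2.54-fold brighter in eosinophils and Clec7a at least 38.4-fold brighter in dendritic cells. Between them, Clec1b, a receptor known from platelets, gave 262 units in dendritic cells against 35.2, at least 1.94-fold apart, and Clec2m was under the floor on both arrays (34.0 and 96.3 units). In the first stretch only Clec4n of the 5 genes pointed toward dendritic cells, by less than the SD between probe sets.

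Other genes with a C-type lectin domain were mostly dim. Of 47 on the array, 16 were measured, and 2 of them reached 4-fold in each direction (5.35% of all measured genes each way). Their median log2 difference was 0.10, and it changed sign in 6 of 10 alternative settings. Ly75, the endocytic receptor DEC-205 of dendritic cells, gave 1878 units in dendritic cells and 138 in eosinophils, 13.6-fold apart, with the eosinophil signal just above the floor. Thbd, thrombomodulin, gave 571 and 116 units, at least 4.23-fold brighter in dendritic cells. Selp, P-selectin, was at least 7.05-fold brighter in eosinophils (949 against 85.2 units), and Cd93 at least 6.94-fold (935 against 130 units), but for both a second probe set differed by 0.23 and -0.01 on the log2 scale. The 31 unmeasured genes included Cd207, Mgl2 and Clec5a, chosen after their values were seen.

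Most adaptors and kinases that activating receptors signal through were brighter in eosinophils. Of 8 measured adaptors and proximal kinases, 4 reached 4-fold toward eosinophils and 1 toward dendritic cells (5.35% of all measured genes each way). The median log2 difference of the list was 2.06, against 0.16 for all measured genes. Fcer1g, the adaptor of Clec4n and Clec4e, gave 309 units in dendritic cells and 9854 in eosinophils, 31.9-fold apart. Tyrobp, also called DAP12, gave 1986 and 12069 units, 6.08-fold apart in the same direction. The Src-family kinase Fgr (9.75-fold) and the kinase Btk (6.45-fold) were also brighter in eosinophils. Fyn, another Src-family kinase, was 19.3-fold brighter in dendritic cells (4079 against 211 units), and its 2 probe sets differed by -4.27 and -4.06 on the log2 scale. Syk, the kinase shared by Clec7a and Fcer1g, was strong on both arrays with 1206 and 2237 units, 1.85-fold apart. Clec7a, which carries its own motif, had its high signal on the array where Fcer1g was lower. Clec4n, at 385 and 250 units, did not follow Fcer1g. Clec4d, which pairs with Clec4e, was brighter on the same array as Fcer1g, with 358 units in dendritic cells and 2035 in eosinophils. Both Clec4e probe sets passed the floor in eosinophils alone.

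The list of phosphatases and negative regulators had 9 measured genes. It is broader than the phosphatases that inhibitory receptors recruit, and includes the receptor-type phosphatases Ptprc and Ptprj. Of these, 3 reached 4-fold toward eosinophils and none toward dendritic cells (5.35% of all measured genes each way). The median log2 difference of the list was 0.98, which is the value of Ptprc, so it does not describe the recruited phosphatases alone. These counts use 1 probe set per gene, and the 3 measured sets of Ptprj lay between -2.23 and 0.65 on the log2 scale. Ptpn6, or SHP-1, gave 282 units in dendritic cells and 1957 in eosinophils, 6.93-fold apart, and its 2 probe sets differed by 1.35 and 2.79 on the log2 scale. The adaptors Dok3 (3124 against 66.1 units, at least 23.2-fold) and Dok2 (1012 against 102 units, at least 7.51-fold) pointed the same way. The ubiquitin ligase Cbl was 2.78-fold brighter in eosinophils, with a second probe set at 0.21, and Ptprc, the phosphatase CD45, was 1.97-fold brighter. Ptpn11, or SHP-2, and the lipid phosphatase Inpp5d, both chosen after their values were seen, pointed toward dendritic cells. Ptpn11 gave 4104 units in dendritic cells and 2245 in eosinophils, 1.83-fold apart, but the log2 differences of its 3 probe sets lay between -0.87 and 2.15. Inpp5d was 1.55-fold apart (2828 against 1830 units), with probe sets at -0.63 and -1.24. Centring on the spike controls moved the median of this list to -0.061.

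Downstream of Syk, the 4 measured NF-kappaB subunits were brighter in dendritic cells, while other genes of the CARD9 and NF-kappaB list went both ways. The list of CARD9 and NF-kappaB genes had 18 measured genes, of which 2 reached 4-fold toward dendritic cells and none toward eosinophils (5.35% of all measured genes each way). At 2-fold or more, 7 pointed toward dendritic cells (15.5% of all measured genes) and 4 toward eosinophils (19%). The median log2 difference of the list was -0.32. No probe set carried the name of Card9 or Malt1. Rel gave 1640 units in dendritic cells and 135 in eosinophils, 12.1-fold apart, with the eosinophil signal at the edge of the floor. Nfkb2 was 5.30-fold brighter (1205 against 228 units) and Relb at least 3.78-fold (509 against 134 units), and Rela, chosen after its values were seen, was 2.08-fold brighter. Vav3, an exchange factor, was 2.67-fold brighter in dendritic cells, with probe sets from -1.42 to -0.39 on the log2 scale, while the calcineurin subunit Ppp3ca was 3.74-fold brighter in eosinophils.

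**Figure D3:**
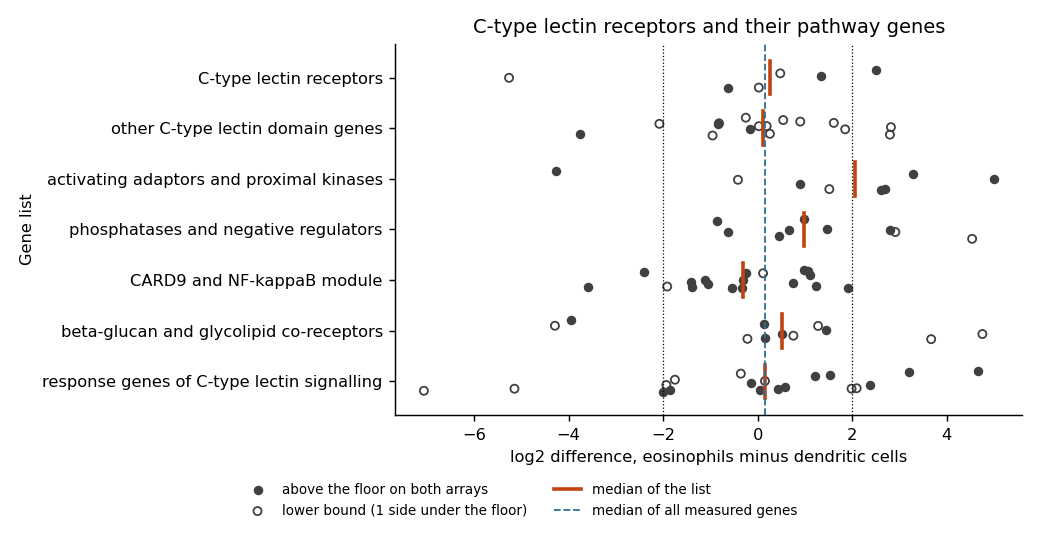
log2 difference (eosinophils minus dendritic cells) of each measured gene in the C-type lectin receptor list and 6 pathway lists, filled where both arrays were above the floor and open where the value is a bound, with a bar at the list median, a dashed line at the median of all measured genes (0.16) and dotted lines at 4-fold. The list of adaptors and proximal kinases has the highest median (2.06) and the CARD9 and NF-kappaB list the lowest (-0.32).

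Co-receptors that act beside C-type lectins divided between the arrays. The co-receptor list had 11 measured genes, among them the adaptor Myd88, and 2 reached 4-fold in each direction (5.35% of all measured genes each way). The median log2 difference of 0.51 became -0.53 after centring on the spike controls. Cd37, a tetraspanin that associates with Clec7a, gave 53.6 units in dendritic cells and 3630 in eosinophils, at least 26.9-fold apart, while its other probe set differed by a log2 value of 1.55. Clec7a and Cd37 thus had their high signals on different arrays. Tlr4 was at least 12.7-fold brighter in eosinophils (1712 against 3.85 units) and Tlr6 2.70-fold. Cd14 (2641 units against a signal under the floor, at least 19.6-fold) and Cd36 (3174 against 205 units, 15.5-fold) were brighter in dendritic cells.

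The list of response genes of C-type lectin signalling, which also holds Pycard and the caspases Casp1 and Casp8, had no common direction. Of 19 measured response genes, 4 reached 4-fold toward eosinophils and 3 toward dendritic cells (5.35% of all measured genes each way). Their median log2 difference was 0.15, and it was -0.025 with loess and -0.54 with spike control centring. The chemokines Ccl17 and Ccl22 were brighter in dendritic cells by at least 134-fold and at least 35.5-fold. Both also stand in the list of dendritic cell markers. The chemokines Ccl3 and Ccl4 (25.1-fold and 5.15-fold) and the transcription factor Egr2 (9.18-fold) were brighter in eosinophils. The labels call the cells unstimulated, and effects of isolating and sorting them were not tested.

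The measured markers of the labelled cell types were brighter on the matching arrays. For comparison with the marker counts, 47.2% of all probe sets in dendritic cells and 52.8% in eosinophils lay above the floor. Of 9 eosinophil markers on the array, 7 were above the floor in eosinophils and 1 in dendritic cells, led by Alox15, Siglecf and Adgre1, while Prg2 and Prg3 were under the floor on both. All 14 dendritic cell markers were above the floor in dendritic cells and 6 in eosinophils, led by H2-Ab1, H2-Aa and H2-Eb1. The sort itself used MHCII and SiglecF, so the H2 genes and Siglecf are no separate check of the labels. Among markers outside the gate, Alox15 (9996 against 20.5 units) and Adgre1 (12076 against 327 units) were brighter in eosinophils. Itgae (7961 against 55.2 units) was brighter in dendritic cells, and Zbtb46 was so by only 1.48-fold. Clec7a and other members are also known from macrophages. Of 13 macrophage and monocyte markers on the array, 7 were above the floor in dendritic cells and 5 in eosinophils, with summed signals of 15167 and 2706 units. Lyz2 (at least 58.0-fold), Cd14 and Cd68 (3.83-fold) were brighter in dendritic cells. C1qb (363 against 37.5 units, at least 2.70-fold), C1qa (153 against 14.7 units, at least 1.14-fold) and Csf1r (1121 against 763 units, 1.47-fold) pointed the same way. Ccr2 gave 162 units in dendritic cells and 155 in eosinophils. Fcgr1, C1qc, Cx3cr1 and Apoe were under the floor on both arrays, and Mertk (258 units) and Cd163 (193 units) were above it in eosinophils alone. The part of such cells in the Clec7a signal was not tested. Of 9 neutrophil markers on the array, 4 were above the floor in eosinophils and 1 in dendritic cells, with summed signals of 1616 and 542 units. Cxcr2 (570 units), Mmp8 (369 units) and Elane (155 units) were above it in eosinophils alone. S100a8 passed it on both arrays, with 176 units in dendritic cells and 147 in eosinophils. S100a9, Mpo, Camp, Ltf and Ngp were under the floor on both. The part of neutrophils in the Clec4d signal was not tested. In the other 7 marker lists, 2 genes reached 4-fold toward dendritic cells (Cd8a, which some dendritic cells also express, 26.5-fold, and Ccr9, 7.18-fold) and 3 toward eosinophils (Krt18, Pdgfra and Pecam1, by at least 6.45-fold, 5.86-fold and 4.80-fold). Each of these lists had 2 to 6 measured genes. Of all measured genes, 5.35% reached 4-fold each way, and these counts are too few to set apart from that.

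**Figure D4:**
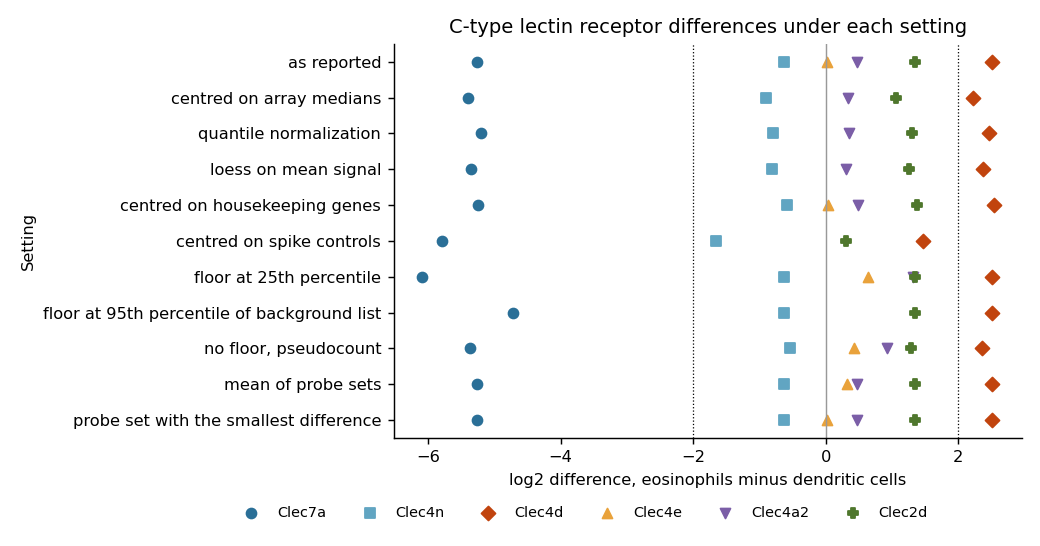
log2 difference (eosinophils minus dendritic cells) of the 6 measured receptors as reported and under 10 other settings of scale, floor and probe set, with dotted lines at 4-fold; a marker is missing where a receptor was under the floor on both arrays. Clec7a stays between -6.09 and -4.72, Clec4d lies between 1.47 and 2.54 and is under 4-fold with spike control centring, and Clec2d lies between 0.30 and 1.37.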

How the data were processed

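RNA of 1 dendritic cell and 1 eosinophil sample was hybridised to 1 array each. The table deposited by the authors holds a linear intensity for each probe set and no detection calls, and the submitters' processing notes name MAS5 5.0. RNA was extracted with Trizol and amplified as biotin-labelled cDNA, per the labels' protocols. Scanner files were not used here. The number of arrays limits the precision.

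Of 22690 probe sets, 64 were controls, 20393 had 1 annotated gene, 691 several and 1606 none. Symbols were updated through Entrez identifiers for 20351 probe sets with the RefSeq table of GRCm38.p6. Each of 12393 genes was represented by its probe set of highest mean log2 signal. Values under the floor of 134.7 units were raised to it, and genes under it on both arrays received no fold. Named genes were all 10 receptors, the 5 furthest apart of each pathway list, up to 3 furthest apart of each marker list, markers under the floor that define a cell type, and Fcer1g, Syk, Card9, Tyrobp and Ptpn6. Other named genes of these lists were chosen after their values were seen. The receptors and lists were chosen with earlier results of these data known. Tables were made with Python 3.11.15, pandas 2.3.3 and numpy 2.4.6, and the loess used statsmodels 0.14.6. The scripts were tested on simulated data. Alternatives were 5 scalings, 3 floors, 2 probe set rules, and thresholds of 2-fold and 10-fold.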

Additional observations from a re-analysis of the deposited data

How the results depend on the processing

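Each result was recomputed under alternatives of scaling (centring on array medians, on 14 housekeeping genes or on 18 spike control probe sets, quantile normalization, loess with span 0.3), floor, probe set rule and fold. Of 171 recomputed values, 139 kept their sign and moved by less than the SD between probe sets of a gene (0.73 on the log2 scale) or, for counts, by no more than 1.5-fold, 32 did not, and none of the called differences changed sign. Over genes measured both ways, the median change in a gene's log2 difference was -0.28 with array medians, -0.11 with quantile normalization, -0.17 with loess and -1.04 with spike controls. Genes at least 4-fold apart split evenly between the arrays as reported, while eosinophils were the brighter in 35.6% of cases with array medians and 12.3% with spike controls.

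The count of receptors at least 4-fold brighter in eosinophils was 0 with spike controls. With the threshold itself moved, it was 2 at 2-fold and 0 at 10-fold. The count for dendritic cells was 1 throughout. With spike controls the receptor median was -0.68, and Clec2d, Clec4d and Clec4n differed by 0.30, 1.47 and -1.66. With the floor at the 25th percentile, Clec4a2 differed by 1.32 and Clec7a by -6.09. Mrc1 then differed by 1.32, Clec10a by -0.87 and Cd209a by a bound of -0.54, and these 3 were measured only in that setting or without a floor, where they differed by 0.78, -0.46 and -0.90. All genes brighter in eosinophils numbered 161 with spike controls, 844 with that lower floor, 274 with the probe set of smallest difference, 1519 at 2-fold and 105 at 10-fold, and those brighter in dendritic cells numbered 1153, 665, 269, 1241 and 124. With spike controls the list medians were -1.36 for CARD9 and NF-kappaB, 1.29 for adaptors and kinases, -0.53 for co-receptors, -0.30 for other C-type lectin domain genes, -0.061 for phosphatases and -0.54 for response genes. The median of other C-type lectin domain genes was also -0.010 with loess, -0.14 with the lower floor, -0.17 with the background floor, -0.13 with a pseudocount of 50 and no floor, and -0.013 with the probe set of smallest difference. The response gene median was -0.025 with loess and -0.049 with the pseudocount. Centring on the spike controls, the array medians or the housekeeping genes shifts each difference by a constant before the floor is applied. Moving the floor changes only the value to which low signals are raised and which genes count as measured. The cause of the other shifts was not tested. Clec4e and Clec4a2 had no value in some settings because both signals fell under the floor. No paired analysis was possible because each population had 1 array.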
